A study of Arabidopsis thaliana with 60 samples.

Results

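The comparison set leaves infiltrated with flg22 and estradiol in one solution (flg22+Ed) against leaves infiltrated with estradiol alone (Ed), 120 min after infiltration and across all genes, which asks what the flagellin peptide changes when the effector AvrRpt2 is being induced at the same time. It rests on 6 of the 60 libraries of the study, 3 per group, each group holding 1 library from each of 3 independent experiments. All plants, those of the comparison group included, were Arabidopsis thaliana of the Col-0 ecotype with the genotype dde2 ein2 pad4 sid2 Ed-AvrRpt2 and were 4 weeks old. Ed leaves received 10 µM estradiol in 0.1% ethanol, and flg22+Ed leaves received the same with 1 µM flg22, so flg22 is the listed difference. Each library pooled leaves of 2 plants, 2 leaves per plant, and was made from total RNA by Smart-3SEQ, which reads the 3′ ends of transcripts. For context, Mock leaves (0.1% ethanol) and flg22 leaves (1 µM, with no ethanol listed) at 120 min, and flg22+Ed and Ed leaves at 60, 180 and 300 min, were used, each with 3 libraries of the same genotype. The labels name no cell type for the transgene, and its transcript was not analysed here.

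Flagellin is sensed at the plant cell surface by the receptor kinase FLS2 with its co-receptor BAK1, which signal through cytoplasmic kinases such as BIK1, calcium entry and MAP kinase cascades to WRKY and other transcription factors (pattern-triggered immunity). AvrRpt2 is a bacterial protease that cuts the host protein RIN4, and the resistance protein RPS2 senses that loss (effector-triggered immunity). The 4 mutations of the line disable jasmonate synthesis (dde2, the gene AOS), ethylene signalling (ein2), the EDS1 partner PAD4, and salicylic acid synthesis (sid2, the gene ICS1), so both groups lack these hormone and signalling sectors.

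The 6 libraries held 2.47 to 4.22 M counts and 18729 to 19484 detected genes, and a floor of 3 counts stood for 0.630 to 1.09 counts per M (CPM). Levels are CPM, and differences are log2 fold changes of flg22+Ed over Ed from edgeR's quasi-likelihood test, ± a standard error worked back from the F statistic, with p-values adjusted by Benjamini and Hochberg over 16763 genes. All 43 tested photosynthesis genes, markers of leaf mesophyll, were counted, with summed levels of 117480 to 170990 CPM in flg22+Ed and 147940 to 198210 CPM in Ed leaves. Summed levels were 396 to 625 against 522 to 714 CPM for 10 guard cell markers and 530 to 615 against 553 to 713 CPM for 8 phloem markers. They were 1898 to 2225 against 1284 to 1786 CPM for the list of 9 epidermis markers (7 tested). For the list of 6 xylem markers (5 tested) they were 9.77 to 33.8 against 25.5 to 37.5 CPM. No defining marker was at 0 in Ed leaves. In whole leaves, fewer cells of a type and less RNA per cell cannot be told apart. Transcripts of the mutated genes were counted, but a 3′ tag outside the mutated part checks nothing about a mutation. AOS stood at 16.8, 18.1 and 37.6 CPM in flg22+Ed replicates 1 to 3 and at 24.6, 16.9 and 40.1 CPM in Ed, EIN2 at 10.7, 14.8 and 12.7 against 12.3, 15.2 and 17.2 CPM, and PAD4 at 26.0, 6.87 and 78.5 against 8.51, 3.18 and 31.7 CPM. None of these differences passed the test (adjusted p = 0.881, 0.714 and 0.177), though PAD4 did without Ed replicate 3 (adjusted p = 0.00918). ICS1 had 18 and 19 counts in all and was too low to test.

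Experiment 3 stood apart in the Ed group and, at 120 min, in the Mock group. Across the genes that were higher in flg22+Ed leaves, Ed replicate 3 was the highest Ed library for 878 of 1023, against 113 for replicate 1 and 32 for replicate 2. The median level over these genes was 9.77, 6.12 and 16.4 CPM in Ed replicates 1 to 3 and 32.4, 35.5 and 53.7 CPM in flg22+Ed, so experiment 3 was the highest in both groups. The 14 genes that differed between Ed and Mock leaves at this time showed the order experiment 3, 1, 2 as well. Summed over them, the level was 451, 136 and 936 CPM in Ed leaves and 828, 347 and 2093 CPM in flg22+Ed leaves, against 11.1, 9.42 and 62.1 CPM in Mock and 395, 326 and 247 CPM in flg22 leaves. All 3 Mock libraries lay below all Ed libraries, as the choice of these genes favours, and the Ed libraries differed more among themselves than the flg22 libraries did. Mock replicate 3 was likewise apart from replicates 1 and 2. In Mock replicates 1 to 3 the WRKY list summed to 244, 282 and 952 CPM and the early pattern-response markers to 60.8, 82.2 and 473 CPM. Not every list rose there, and the abscisic acid list stood at 4548, 4111 and 3103 CPM. Results are therefore given with all libraries, and without Ed replicate 3 where that changes a call.

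Outside the 12 libraries at 120 min, 4 libraries of experiment 2 went against their labels on the clock gene LHY, which peaks around dawn, and they enter the shared estimate of the spread. LHY stood at 316 CPM in Mock replicate 2 labelled 300 min, against 3.07 and 1.54 CPM in replicates 1 and 3, and at 4.65 CPM in flg22 replicate 2 labelled 0 min, against 268 and 359 CPM. It stood at 106 CPM in Mock replicate 2 labelled 0 min, against 284 and 391 CPM, and at 250 CPM in that labelled 60 min, against 158 and 149 CPM. The labels were kept, and none of these libraries belongs to a group compared here.

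**Figure D1:**
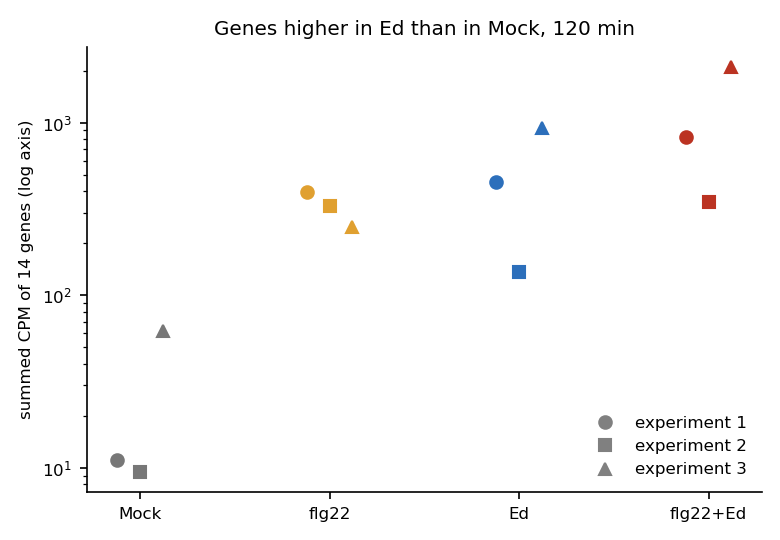
Summed level, in CPM on a log axis, of the 14 genes called higher in Ed than in Mock leaves at 120 min, with 1 point per library and a marker shape per experiment. Ed libraries lie between 136 and 936 CPM and flg22+Ed libraries between 347 and 2093 CPM, and experiment 3 is the highest in both.

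Adding flg22 raised far more genes than it lowered. With it, 1023 genes were higher (6.1% of those tested) and 189 lower (1.13%), or 1212 in all (7.23%). The rises were also the larger changes, with a median of 2.01 on the log2 scale, 516 of them over 2 and 105 over 4, while the falls had a median of -1.07 and 4 went beyond -2. The median over all tested genes was -0.04. Of the 1023, 1018 were higher in each of the 3 experiments and for 975 the groups did not overlap, and of the 189, 187 were lower in each and 178 did not overlap. Of all tested genes, called or not, 24.2% were higher and 26.2% lower in each of the 3 experiments, and for 14.6% and 13.7% the groups did not overlap. The test used the same 6 libraries, so these counts are a description of the called genes. With the experiment number as a block 1172 genes were higher and 314 lower. Without Ed replicate 3 there were 1205 and 305, and without the 4 libraries at odds with their labels 1588 and 579. The count fell to 392 higher and 15 lower without flg22+Ed replicate 3, to 522 and 52 without Ed replicate 1 and to 367 and 21 without Ed replicate 2, and for the lower genes it was 402 without flg22+Ed replicate 1 and 96 without replicate 2.

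The 12 largest rises among genes with at least 5 CPM in a group, a test passed and the same direction in every experiment began with AT2G36690, a gene for an oxoglutarate- and iron-dependent oxygenase. It stood at 16.5, 8.32 and 25.8 CPM in flg22+Ed leaves and at 0 counts in all Ed libraries, at least 69.2-fold higher (adjusted p = 1.85e-05, bound against 3 counts over the group). AT2G17740, a gene for a cysteine- and histidine-rich C1 domain protein, was at 183, 225 and 660 CPM against 0.946, 0.735 and 10.3 CPM, a rise of 6.40 ± 0.95 (adjusted p = 1.13e-05). AT2G44370, of the same C1 domain family, was at 158, 176 and 276 against 1.89, 2.2 and 4.62 CPM, a rise of 6.08 ± 0.84 (adjusted p = 2.87e-06). In all these genes the lowest flg22+Ed library lay far above the highest Ed library, which their choice by the same libraries favours.

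Proteins of secretion and hormone synthesis were among the same 12. The ethylene synthesis gene ACS7 (AT4G26200), an ACC synthase, was at 64.5, 48.5 and 106 CPM against 0, 0 and 2.31 CPM, a rise of 6.31 ± 0.82 (adjusted p = 1.85e-06), in a line whose ethylene response is disabled by ein2. EXO70H2 (AT2G39380), a subunit of the exocyst that tethers secretory vesicles, was at 9.84, 29.7 and 56.8 CPM against 0, 0 and 0.420 CPM, a ratio of 190 with a 95% counting interval of 52.2 to 1579 (adjusted p = 9.18e-08). RABA1e (AT4G18430), a small GTPase of vesicle traffic, was at 16.2, 12.7 and 14.3 CPM against 0.315, 0 and 0.210 CPM, a ratio of 87.2 (23.7 to 727, adjusted p = 1.57e-05). Both genes had 2 counts in all Ed libraries together.

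The transcription factor gene MYB87 (AT4G37780) had 9.84, 27.1 and 27.9 CPM against 0, 0 and 0.420 CPM, a ratio of 127 (34.6 to 1053, adjusted p = 1.43e-07). IDA (AT1G68765), which encodes the peptide that triggers floral organ shedding, had 2.31, 5.79 and 21.4 CPM against 0 counts, at least 39.5-fold higher (adjusted p = 0.00116, and 0.156 without experiment 3). The remaining 4 were the berberine bridge enzyme-like gene AT1G26420 (6.45 ± 0.63, adjusted p = 8.02e-09, the smallest of all genes), the VQ motif gene AT4G20000 (6.36 ± 0.71, adjusted p = 5.55e-08) and the unnamed genes AT1G51920 and AT2G31335, with ratios of 107 (29.1 to 890) and 88.3 (29.8 to 431). IDA alone of the 12 lost its call in any of the 19 other settings tried.

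The stretches of 250 bases before the annotated starts of the 3 most abundant of these genes are shown because WRKY transcription factor genes were among those that rose, and the W-box is the word that WRKY factors bind. They were read from the RefSeq genome and annotation of the build TAIR10.1 and run 5′ to 3′ on the gene's strand. Capitals mark TTGACC or TTGACT or their reverse complements GGTCAA or AGTCAA, none of which overlap.
AT2G17740, chr2:7707955-7708204, minus strand: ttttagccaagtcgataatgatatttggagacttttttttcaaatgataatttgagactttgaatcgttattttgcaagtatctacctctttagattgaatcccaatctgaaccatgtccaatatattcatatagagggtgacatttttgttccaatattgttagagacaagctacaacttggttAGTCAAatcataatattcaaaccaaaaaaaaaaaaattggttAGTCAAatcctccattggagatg
AT2G44370, chr2:18323122-18323371, minus strand: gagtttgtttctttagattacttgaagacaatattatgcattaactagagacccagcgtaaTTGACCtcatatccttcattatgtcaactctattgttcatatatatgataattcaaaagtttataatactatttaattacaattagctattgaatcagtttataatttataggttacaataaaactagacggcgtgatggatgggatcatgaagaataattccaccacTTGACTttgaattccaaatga
ACS7, chr4:13274950-13275199, plus strand: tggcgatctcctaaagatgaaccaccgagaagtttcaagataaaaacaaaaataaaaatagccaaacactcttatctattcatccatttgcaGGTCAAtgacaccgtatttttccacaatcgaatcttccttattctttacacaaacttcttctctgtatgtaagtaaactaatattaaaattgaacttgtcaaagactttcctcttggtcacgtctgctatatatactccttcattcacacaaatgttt
Of the 12 largest rises, 9 held at least 1 such word in that stretch. Over all 24887 genes of the table with such a stretch, 28.4% held 1 or more. Among the 1023 higher genes 513 did (50.1%), against 27.1% of 15460 tested genes that were not called and 19.6% of the 189 lower genes, and 2 or more words stood before 20.6%, 5.46% and 4.76% of them. A match is a word in a sequence and was not tested as a binding site.

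**Figure D2:**
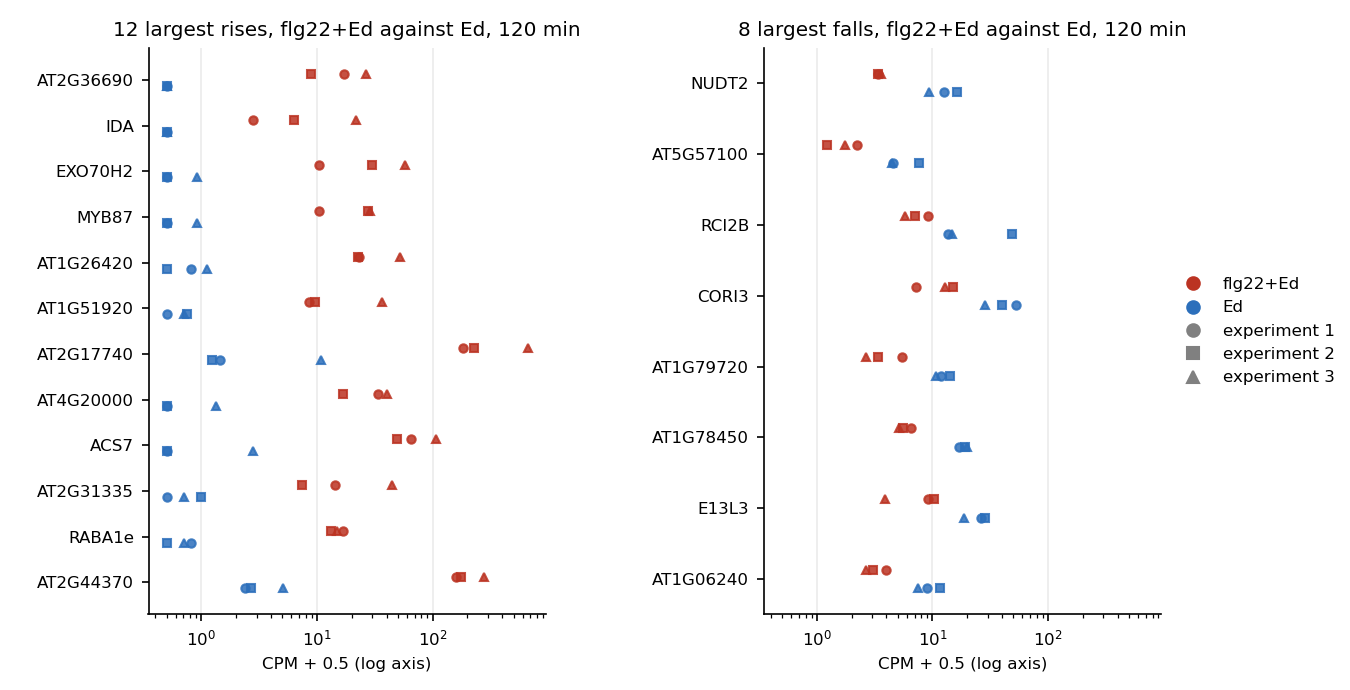
Level in each of the 6 libraries, as CPM + 0.5 on a log axis, of the 12 largest rises (left) and the 8 largest falls (right), with flg22+Ed in red, Ed in blue and a marker shape per experiment. In each of the 20 genes the 3 flg22+Ed points lie on one side of the 3 Ed points, which their choice by these same libraries favours. Over all tested genes the groups did not overlap for 14.6% (higher) and 13.7% (lower).

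The largest falls were smaller. NUDT2 (AT5G47650), a nudix hydrolase gene, was at 2.89, 2.9 and 3.10 CPM in flg22+Ed leaves against 12.0, 15.7 and 8.81 CPM, a log2 difference of -2.02 ± 0.37 (adjusted p = 0.000293), and was the one fall of the 8 that kept its call in all 19 other settings. AT5G57100, a nucleotide-sugar transporter family gene, stood at 1.74, 0.724 and 1.24 against 4.098, 7.10 and 3.99 CPM (-1.98 ± 0.45, adjusted p = 0.00301, 0.167 at most elsewhere). AT1G79720, an aspartyl protease family gene, stood at 4.92, 2.9 and 2.173 against 11.3, 13.7 and 10.3 CPM (-1.80 ± 0.47, adjusted p = 0.0112), and AT1G78450, a heme-binding family gene, at 6.08, 5.07 and 4.66 against 16.4, 18.6 and 19.3 CPM (-1.77 ± 0.44, adjusted p = 0.00649). In these genes the 2 groups were separate in every experiment, which their choice by the same libraries favours. RCI2B (AT3G05890), a cold- and salt-responsive gene, the tyrosine aminotransferase family gene CORI3 (AT4G23600), E13L3 (AT5G08000) and AT1G06240 fell by 1.67 to 1.89 on the log2 scale (adjusted p = 0.0162 to 0.0486), and each lost its call in 6 or more of the other settings.

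Receptors and their partners were the first layer examined. Of 34 tested pattern receptors, co-receptors and kinases 13 were higher and 0 lower, with a median of 1.37. The background, the share of all tested genes, was 6.1% higher. The chitin receptor gene CERK1 (AT3G21630) stood at 58.4, 59.3 and 103 CPM against 11.7, 18.9 and 27.7 CPM, a rise of 1.91 ± 0.39 (adjusted p = 0.000819) that held in all 19 other settings. RLP23 (AT2G32680), a receptor-like protein that senses necrosis- and ethylene-inducing peptides, was at 24.0, 55.7 and 73.9 against 5.04, 2.2 and 6.93 CPM (3.42 ± 0.65, adjusted p = 0.000393). The co-receptor gene BAK1 (AT4G33430) rose by 1.58 ± 0.41 (adjusted p = 0.00969), BIK1 (AT2G39660) by 1.93 ± 0.62 (adjusted p = 0.0489) and the co-receptor of receptor-like proteins SOBIR1 (AT2G31880) by 2.33 ± 0.69 (adjusted p = 0.0272). FLS2 (AT5G46330) itself was at 88.8, 113 and 133 against 29.6, 24.7 and 48.9 CPM, which did not pass (1.69 ± 0.80, adjusted p = 0.213) although the groups did not overlap. It passed with only the 6 libraries (adjusted p = 0.0239), the 12 at 120 min (0.0414) and without the 4 libraries at odds with their labels (0.00262). The count was 4, 5 and 2 without flg22+Ed replicate 3, Ed replicate 1 and Ed replicate 2, and 3, 3 and 8 without experiments 1, 2 and 3.

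Receptor-like kinases of other families were examined next, beside a background of 6.1% higher. Of 19 cysteine-rich receptor-like kinase genes 11 were higher and 0 lower (median 2.24), among them CRK45 (AT4G11890) at 273, 321 and 452 CPM against 10.4, 3.92 and 36.5 CPM (4.34 ± 0.78, adjusted p = 0.000178) and CRK3 (AT1G70530) at 84.8, 86.5 and 101 against 21.8, 12.98 and 19.9 CPM (2.32 ± 0.46, adjusted p = 0.000658). CRK20 (AT4G23280) had 67 counts against 1, a ratio of 85.3 (14.8 to 3419, adjusted p = 2.46e-05). Many of these kinases are close copies on chromosome 4 whose 3′ tags may not be told apart. Of 10 wall-associated kinase genes, whose products bind cell wall pectin, 5 were higher, led by WAKL4 (AT1G16150) at 18.5, 13.4 and 19.6 against 0, 0 and 1.05 CPM (5.28 ± 0.79, adjusted p = 2.09e-05). Without flg22+Ed replicate 3, Ed replicate 1 or Ed replicate 2 these counts were 6, 7 and 6 of the 19 and 1, 2 and 1 of the 10, and the last was 3 without flg22+Ed replicate 2. Without experiments 1, 2 and 3 they were 5, 6 and 8 of the 19 and 1, 2 and 1 of the 10.

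Of 20 early pattern-response markers 12 were higher (background 6.1%) and 0 lower, with a median of 2.78, and 7 were higher without experiment 1. FRK1 (AT2G19190), the flg22-induced receptor-like kinase, stood at 17.65, 18.1 and 25.5 CPM in flg22+Ed leaves and at 0.315, 0.245 and 0.630 CPM in Ed leaves. That is a rise of 5.51 ± 0.73 (adjusted p = 1.80e-06), with the highest Ed library far below the lowest flg22+Ed library. MLO6 (AT1G61560), of a membrane protein family known for powdery mildew susceptibility, was at 30.1, 37.3 and 93.8 against 0.946, 0.490 and 1.68 CPM (5.6 ± 0.62, adjusted p = 5.55e-08). The receptor-like kinase gene AT1G51890 was at 18.5, 16.6 and 32.6 against 0, 0.245 and 0.839 CPM (5.67 ± 0.68, adjusted p = 3.67e-07). The ubiquitin ligase genes PUB22 (AT3G52450), PUB23 (AT2G35930) and PUB24 (AT3G11840), which dampen pattern signalling, rose by 4.40 ± 0.73, 3.86 ± 0.77 and 2.09 ± 0.51 (adjusted p = 5.72e-05, 0.000738 and 0.00615).

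Of 11 genes for signalling peptides and a receptor of theirs, 3 were higher (background 6.1%). PROPEP3 (AT5G64905), the precursor of a damage peptide, was at 21.4, 15.2 and 45.6 against 0.315, 0.490 and 1.05 CPM (5.31 ± 0.78, adjusted p = 1.41e-05), and AT5G44585 at 133, 60.8 and 184 against 5.99, 2.45 and 10.49 CPM (4.30 ± 0.64, adjusted p = 1.21e-05). The third, AT5G05300, rose by 2.65 ± 0.83 (adjusted p = 0.0409) and lost its call in 9 of the 19 other settings, up to an adjusted p of 0.462. The receptor gene RLK7 (AT1G09970) had values of 308, 354 and 541 against 144, 90.13 and 261 CPM and did not pass (1.28 ± 0.52, adjusted p = 0.137, and 0.0222 without the 4 libraries at odds with their labels).

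Downstream of the receptors, 4 of 23 calcium genes were higher. They were the glutamate receptor-like channel gene GLR2.9 (AT2G29100), with 20 counts against 0 and so at least 8.49-fold higher (adjusted p = 0.0064), the plasma membrane calcium pump gene ACA12 (AT3G63380, 3.53 ± 0.78, adjusted p = 0.00244), the calmodulin-like gene CML42 (AT4G20780, 2.36 ± 0.63, adjusted p = 0.0132) and the channel gene CNGC20 (AT3G17700, 1.57 ± 0.34, adjusted p = 0.00184). Of 16 MAP kinase cascade genes 5 were higher (31.2%), by smaller steps. MKS1 (AT3G18690), a substrate of MPK4, was at 35.3, 30.03 and 52.5 against 7.57, 5.63 and 13.4 CPM (2.13 ± 0.46, adjusted p = 0.00167), and MAPKKK5 (AT5G66850) at 68.3, 78.5 and 102 against 36.2, 32.6 and 47.9 CPM (1.09 ± 0.28, adjusted p = 0.00937). MPK6 (AT2G43790) rose by 0.59 ± 0.18 (adjusted p = 0.0336) but lost its call in 11 of 19 settings, scaling by library sizes alone among them. The calcium count was 0 with only the 6 libraries, 2 with the 12 at 120 min, 2 without flg22+Ed replicate 3, Ed replicate 2 or experiment 1, and 1 without experiment 2. The cascade count was 2 with only the 6 libraries, 1 with the 12 at 120 min, 1 without flg22+Ed replicate 3, Ed replicate 1 or Ed replicate 2, and 0, 1 and 2 without experiments 1, 2 and 3.

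Transcription factor families differed in how many members passed, beside a background of 6.1% higher. Of 35 WRKY genes 14 were higher and 0 lower (median 1.95), and 10 to 15 were higher when any library or experiment was left out. WRKY29 (AT4G23550), a factor placed downstream of the flagellin MAP kinases, was at 45.7, 130 and 110 CPM against 3.47, 2.94 and 4.62 CPM, a rise of 4.67 ± 0.70 (adjusted p = 1.15e-05). WRKY30 (AT5G24110) was at 123, 90.09 and 145 against 4.098, 0.735 and 12.0 CPM (4.37 ± 0.73, adjusted p = 5.72e-05), WRKY6 (AT1G62300) rose by 3.58 ± 0.58 and WRKY17 (AT2G24570), a repressor of basal defence, by 2.69 ± 0.40 (adjusted p = 3.83e-05 and 8.73e-06). WRKY72 (AT5G15130) had 34 counts against 0, at least 14.4-fold higher (adjusted p = 0.000485).

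WRKY33 (AT2G38470), the activator of camalexin synthesis, did not pass. It stood at 301, 258 and 571 CPM in flg22+Ed leaves and at 106, 45.6 and 224 CPM in Ed leaves, against 11.6 ± 14.4 CPM (SD, n = 3) in Mock leaves. It was thus higher in each experiment, but the log2 fold change was 1.59 ± 0.79 (adjusted p = 0.237, and 0.00952 without experiment 3). Of 20 genes of the ERF list 0 passed under edgeR with all libraries (background 6.1% higher), with a median of 0.28. The list also holds RAV1 and TEM1, which are of the related RAV family and not ERF genes. RAV1 (AT1G13260), at 1.45 (adjusted p = 0.151), passed with the 12 libraries at 120 min (0.0464). It also passed without the 4 libraries at odds with their labels (0.0047). ERF6 (AT4G17490), called higher in Ed than in Mock leaves, stood at 34.4, 9.05 and 54.0 against 28.7, 9.80 and 52.5 CPM. Each experiment thus gave nearly the same value with and without flg22, which the choice of ERF6 by its Ed level favours. ERF105 (AT5G51190) stood at 99.2, 31.1 and 91.3 against 69.3, 18.4 and 152 CPM. Of 20 ZAT, MYB, NAC and CAMTA genes 2 were higher, MYB15 (AT3G23250), an activator of lignin genes, at 133, 165 and 498 against 8.51, 2.94 and 34.4 CPM (4.09 ± 0.74, adjusted p = 0.000204) and the zinc finger gene ZAT11 (AT2G37430) by 3.04 ± 0.73 (adjusted p = 0.00499, lost without flg22+Ed replicate 3, Ed replicate 1 or Ed replicate 2). ZAT10 (AT1G27730) had values of 168, 146 and 417 against 105, 38.7 and 245 CPM (0.91 ± 0.97, adjusted p = 0.645).

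**Figure D3:**
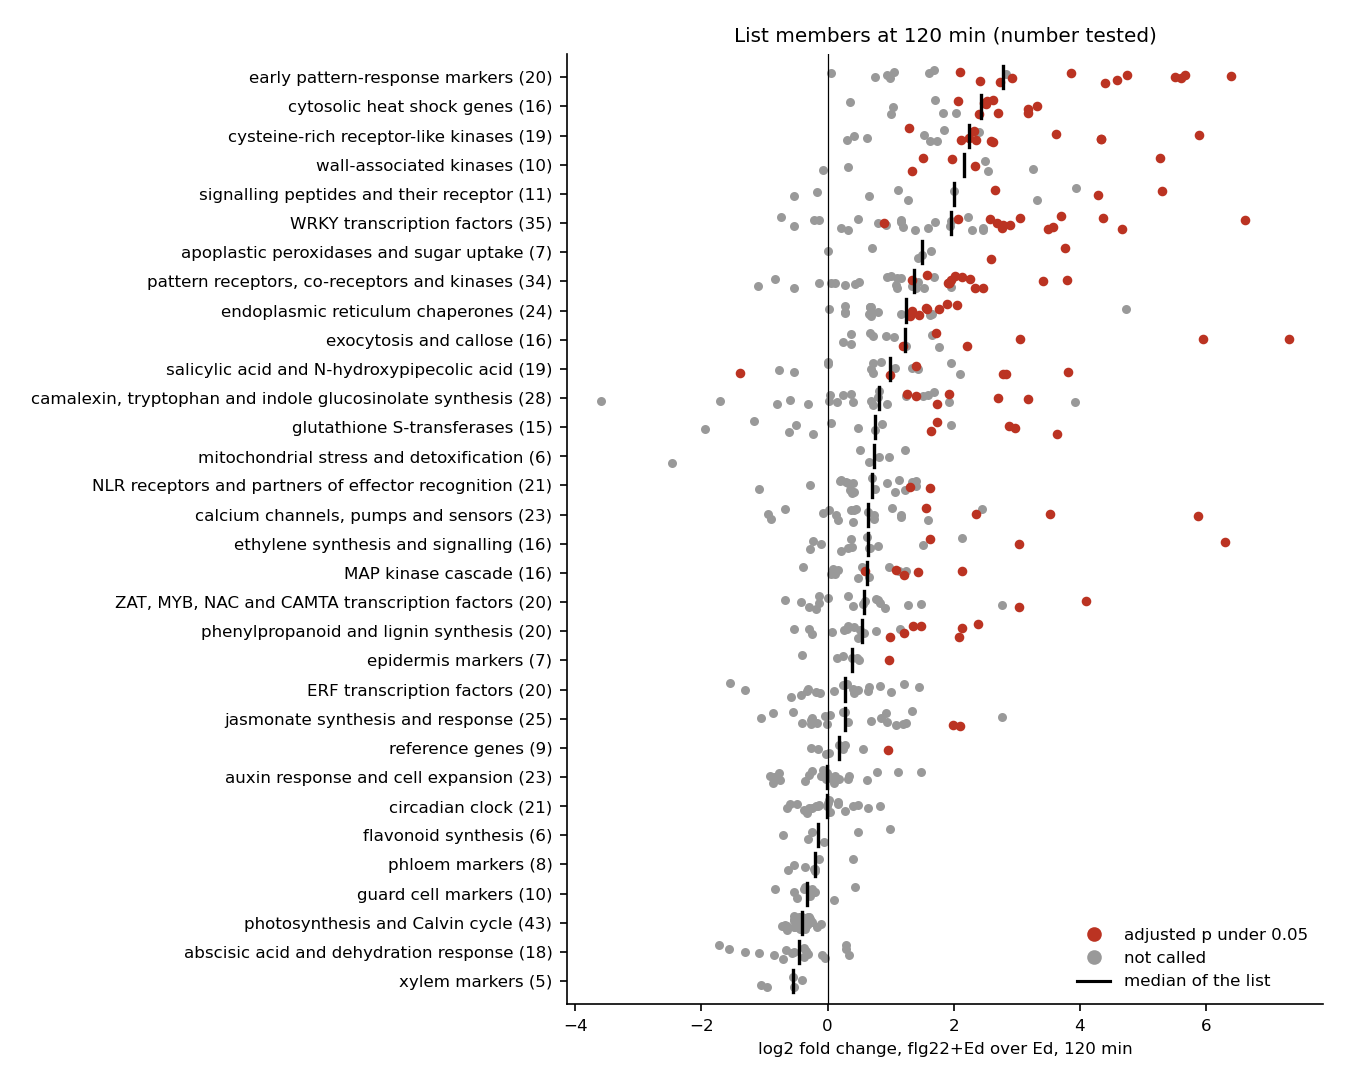
Log2 fold change of flg22+Ed over Ed at 120 min for each tested member of the 32 lists, ordered by the list's median (black bar), with called members in red and the others in grey; the number tested stands beside each list. Members called lie to the right of 0 in every list, except UGT74F2 at -1.38 in the salicylic acid list.

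Of 16 exocytosis and callose genes 6 were higher (background 6.1%, and 3 without experiment 1), and all 6 encode EXO70 subunits, EXO70H2 among them. EXO70H1 (AT3G55150) was at 89.7, 123 and 137 CPM against 0.630, 0.735 and 3.78 CPM (5.96 ± 0.63, adjusted p = 3.58e-08) and EXO70E1 (AT3G29400) at 33.3, 25.3 and 44.1 against 9.46, 7.35 and 14.1 CPM (1.72 ± 0.29, adjusted p = 6.20e-05). EXO70H1 and EXO70H2 are near copies, and 3′ tags may fail to separate them. Among 7 genes of apoplastic peroxidases and sugar uptake, the peroxidase gene AT5G64120 rose by 3.76 ± 0.79 (adjusted p = 0.0014), from 72.2, 33.3 and 164 CPM to 869, 1069 and 1717 CPM, and the hexose transporter gene STP13 (AT5G26340) by 2.59 ± 0.70 (adjusted p = 0.0153, lost without flg22+Ed replicate 3 or Ed replicate 2).

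Protein folding genes rose in both compartments examined. Of 16 cytosolic heat shock genes 10 were higher (background 6.1%) and 0 lower, with a median of 2.44. The co-chaperone gene ROF2 (AT5G48570) was at 805, 794 and 1148 CPM against 59.6, 12.2 and 201 CPM (3.33 ± 0.69, adjusted p = 0.00114), FES1A (AT3G09350), a nucleotide exchange partner of HSP70, at 264, 391 and 546 against 53.9, 19.6 and 121 CPM (2.62 ± 0.57, adjusted p = 0.00194), and HSP101 (AT1G74310), a disaggregase, at 218, 253 and 308 against 26.8, 11.5 and 96.97 CPM (2.52 ± 0.58, adjusted p = 0.00338). Each Ed library lay below each flg22+Ed library in these genes, with Ed replicate 3 the highest and replicate 2 the lowest of its group. Of 24 endoplasmic reticulum chaperone genes 9 were higher (median 1.24). The calreticulin gene CRT3 (AT1G08450), needed for folding of a pattern receptor, was at 220, 207 and 378 against 75.3, 48.3 and 92.3 CPM (1.90 ± 0.33, adjusted p = 0.000129), and ERDJ3A (AT3G08970) rose by 2.05 ± 0.42 (adjusted p = 0.00106). The heat shock count was 4, 5 and 2 without flg22+Ed replicate 3, Ed replicate 1 and Ed replicate 2, and the endoplasmic reticulum count 4, 3 and 3, with 5 without flg22+Ed replicate 2 and 14 without Ed replicate 3. With only the 6 libraries they were 2 and 4, without experiment 1 they were 3 and 2, and without experiment 2 they were 2 and 1.

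In secondary metabolism, 7 of 20 phenylpropanoid and lignin genes were higher (background 6.1%). Among 6 tested flavonoid genes 0 passed, and at this background so few genes cannot show a difference from other genes. The flavonoid list summed to 29.8, 18.1 and 25.1 CPM in flg22+Ed replicates 1 to 3 and 15.8, 20.8 and 24.3 CPM in Ed. The methyltransferase gene OMT1 (AT5G54160) was at 358, 283 and 543 CPM against 177, 143 and 189 CPM (1.22 ± 0.22, adjusted p = 0.000157), and C4H (AT2G30490), the second enzyme of the pathway, at 256, 214 and 654 against 68.4, 68.1 and 118 CPM (2.14 ± 0.47, adjusted p = 0.00204). Chalcone synthase (CHS, AT5G13930), the first enzyme of flavonoid synthesis, stood at 2.89, 1.09 and 0 against 0.630, 5.14 and 0.839 CPM. Of 28 camalexin, tryptophan and indole glucosinolate genes 6 were higher, among them the myrosinase gene PEN2 (AT2G44490) at 654, 780 and 875 against 226, 111 and 274 CPM (1.92 ± 0.48, adjusted p = 0.00718). IGMT2 (AT1G21120), a methyltransferase of indole glucosinolates, was at 104, 64.8 and 169 against 14.2, 5.14 and 32.3 CPM (2.7 ± 0.70, adjusted p = 0.0112), with the close copy IGMT3 perhaps sharing its tags. PAD3 (AT3G26830), the last camalexin enzyme, had 4 counts against 1. Of 15 glutathione S-transferase genes 5 were higher, of which GSTF7 (AT1G02920) and GSTF6 (AT1G02930) are close copies, at 3.64 ± 0.91 and 2.98 ± 0.92 (adjusted p = 0.00785 and 0.0368). Without flg22+Ed replicate 3, Ed replicate 1 and Ed replicate 2 the counts were 1, 6 and 2 for the first list, 1, 2 and 0 for the camalexin list and 0, 1 and 1 for the transferases. Without experiments 1, 2 and 3 they were 4, 5 and 3, then 0, 1 and 2, and then 1, 0 and 2, and with only the 6 libraries 2 in each list.

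Hormone genes were measured in a line that lacks several hormone sectors. Of 19 salicylic acid and N-hydroxypipecolic acid genes 5 were higher and 1 lower (backgrounds 6.1% and 1.13%). CBP60G (AT5G26920), a regulator of salicylic acid synthesis, was at 183, 130 and 495 CPM against 33.1, 9.80 and 70.3 CPM (2.83 ± 0.84, adjusted p = 0.0282), and PBS3 (AT5G13320), which conjugates isochorismate to glutamate, at 12.7, 3.26 and 49.98 against 1.26, 1.96 and 5.88 CPM (2.79 ± 0.68, adjusted p = 0.00615). The fall was that of UGT74F2 (AT2G43820), a glucosyltransferase of salicylic acid, at 15.3, 11.2 and 14.6 against 45.1, 37.96 and 24.98 CPM (-1.38 ± 0.35, adjusted p = 0.00918). The 5 rises were all lost without flg22+Ed replicate 3, without Ed replicate 1 and without Ed replicate 2, and the fall without either of these Ed libraries. The salicylic acid response gene PR1 had 0 counts in each of the 6 libraries, which allows up to 0.630 to 1.09 CPM per library, and FMO1 (AT1G19250), which makes N-hydroxypipecolic acid, also had 0.

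Of 16 ethylene genes 3 were higher, ACS7, ACS2 (AT1G01480, 3.04 ± 0.66, adjusted p = 0.00195) and ACO4 (AT1G05010) at 302, 444 and 550 against 120, 98.5 and 203 CPM (1.62 ± 0.39, adjusted p = 0.00592), all of them synthesis genes. Of 25 jasmonate genes the repressor genes JAZ1 (AT1G19180) and JAZ10 (AT5G13220) were higher, by 2.1 ± 0.65 and 2.00 ± 0.63 (adjusted p = 0.0389 and 0.0447), and both calls were lost when counts were scaled by library sizes alone, a scaling that moved the median of all genes by -0.118, and without flg22+Ed replicate 3, Ed replicate 1 or Ed replicate 2. No gene passed among 18 abscisic acid genes (median -0.45), 23 auxin genes (-0.01), 21 clock genes (-0.02) and 43 photosynthesis genes (-0.41), with backgrounds of 6.1% higher and 1.13% lower. COR15A (AT2G42540), a cold- and dehydration-induced gene, was at 1474, 1880 and 713 against 2598, 4276 and 1728 CPM, lower in each experiment, and did not pass (-1.08 ± 0.41, adjusted p = 0.101), but passed with the experiment block (0.0193) and without Ed replicate 3 (0.0452). LHCB1.3 (AT1G29930), a light-harvesting gene, was at 10943, 9107 and 8150 against 12719, 13248 and 9347 CPM (-0.32 ± 0.17, adjusted p = 0.275).

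Of 21 tested NLR receptors and partners of effector recognition 2 were higher (9.52%, against 6.1% of all tested genes), with 0 without flg22+Ed replicate 3 or experiment 2 or 3, 1 without Ed replicate 1 or 2 and 5 without Ed replicate 3. RIN4 (AT3G25070), the target of AvrRpt2, was at 38.2, 37.6 and 77.6 CPM against 23.3, 16.7 and 21.8 CPM, a rise of 1.31 ± 0.27 (adjusted p = 0.00108, up to 0.117 in the 4 settings that ended the call, all of them with fewer libraries). SAG101 (AT5G14930), a partner of EDS1, rose by 1.62 ± 0.51 (adjusted p = 0.04, lost in 9 of 19 settings). EDS1 (AT3G48090) was at 57.0, 28.6 and 78.5 against 18.9, 10.0 and 32.7 CPM, higher in each experiment but not past the test (1.41 ± 0.51, adjusted p = 0.0863, but 0.0345 without Ed replicate 3 and 0.0488 without flg22+Ed replicate 2). RPS2 (AT4G26090), the sensor of RIN4 loss, was at 20.3, 18.5 and 15.8 against 6.93, 4.16 and 14.5 CPM (1.07 ± 0.59, adjusted p = 0.294), with the smallest difference in experiment 3. Among 9 reference genes the glycolysis gene GAPC1 (AT3G04120) was higher by 0.95 ± 0.25 (adjusted p = 0.0124), and among 7 epidermis markers the cuticle gene FDH (AT2G26250) by 0.97 ± 0.23 (adjusted p = 0.00416). No guard cell, phloem or xylem marker passed, and neither did any of the 6 mitochondrial stress genes.

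Whether the flg22 difference was the same without estradiol was asked with flg22 and Mock leaves at 120 min, 6 other libraries, in which 1246 genes were higher (7.43%) and 470 lower (2.8%), 10.2% together. Of the 1023 genes higher with estradiol 822 were also higher without it, 80.4% of the first list and 66.0% of the second, and 0 genes were called in opposite directions. Of the 189 lower genes 85 were shared, 45.0% of the first list and 18.1% of the second. These lists shrink when an experiment is left out. Without experiment 1 the second comparison called 145 genes in all and without experiment 2 it called 581, and of the genes higher with estradiol 119 of 402 (29.6%) and 250 of 361 (69.2%) were then shared. Without flg22+Ed replicate 3, Ed replicate 1 or Ed replicate 2 the shared genes were 94.9%, 92.9% and 97.5% of the higher genes with estradiol and 29.2%, 39.5% and 28.6% of those without it. Over the 1246 genes the median difference was 2.1 without and 1.67 with estradiol, and over the 1023 genes 2.01 and 2.01, each list having been chosen in its own comparison. The interaction, which tests the difference between both flg22 effects, called 0 genes (0%), with 215 at an unadjusted p under 0.05 (1.28% of genes) and 0 by DESeq2 and limma-voom. That share is below what an unadjusted threshold of 0.05 gives with no difference. With such a test, 0 calls does not show that both flg22 effects were equal. The missing ethanol in the flg22 solution cannot be told apart from estradiol in this test.

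Ed and Mock leaves differed in 14 genes at 120 min, all higher in Ed (0.0835% of genes, and 40 with the experiment block). They included the factor genes ERF6, MYB51 (AT1G18570) and SARD1 (AT1G73805), OM66 (AT3G50930), an ATPase gene of the mitochondrial outer membrane, and DLAH (AT1G30370), a lipase gene. Without Ed replicate 3 the count was 0, and it was 56 without Ed replicate 2. These genes were chosen for Ed above Mock, and the same Ed and Mock libraries enter both flg22 differences with opposite effect, so that a smaller difference with estradiol is favoured by the choice and is given as a description. The flg22 difference of WRKY33, which is not one of the 14, was 4.55 ± 0.93 without estradiol (adjusted p = 0.00073) and 1.59 with it, an interaction of -2.96 ± 1.16 (unadjusted p = 0.0143, adjusted p = 1). ERF6 gave 3.52 ± 0.93 without estradiol and 0.10 ± 0.65 with it, an interaction of -3.42 ± 1.15 (unadjusted p = 0.00469, adjusted p = 1), and OM66 gave 3.67 ± 0.96 and 0.97 ± 0.79. Outside the 14, FRK1 gave 6.11 ± 0.76 and 5.51 ± 0.73, RIN4 1.25 ± 0.27 and 1.31 ± 0.27, and WRKY29 4.11 ± 0.70 and 4.67 ± 0.70, with interactions of -0.61 ± 1.39, 0.06 ± 0.38 and 0.56 ± 0.93.

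When experiment 3 was left out of all groups the interaction called 22 genes, and all had a smaller flg22 difference with estradiol. That setting removed Mock replicate 3, which stood apart at 120 min, along with Ed replicate 3. They held WRKY33 (-4.60, adjusted p = 0.00378), ZAT11 (-4.94, adjusted p = 0.0115), the ERF genes ERF5 (AT5G47230), ERF104 (AT5G61600) and ERF105, the zinc finger genes SZF1 (AT3G55980) and SZF2 (AT2G40140), MYB51, CBP60G, IGMT2 and the peroxidase gene PER4 (AT1G14540). They were listed because that setting called them, after their values were seen. The other settings run for the interaction called 0.

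**Figure D4:**
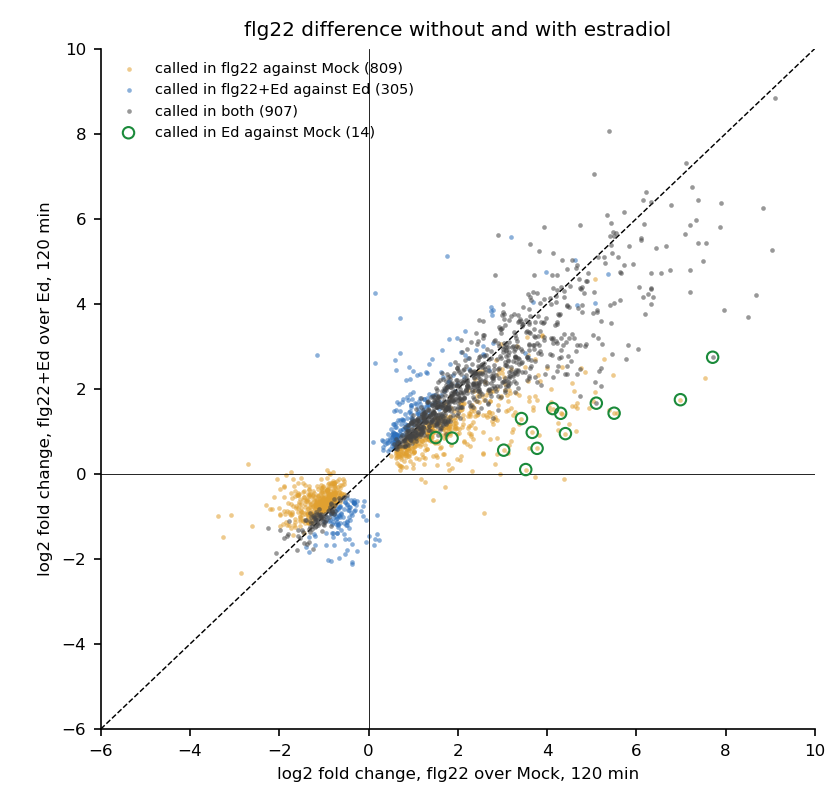
Log2 fold change of flg22+Ed over Ed (y axis) against flg22 over Mock (x axis) at 120 min for genes called in either comparison; the dashed line marks equal values and green rings mark the 14 genes called in Ed against Mock. The 14 ringed genes lie below the line, a position that their choice by Ed above Mock favours.

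The 120 min values sit in a course with 297 genes called at 60 min (1.77%), 2572 at 180 min (15.3%) and 5613 at 300 min (33.5%). Of the 1023 rises, 223 had been called higher at 60 min (background 1.55%), 816 were called at 180 min (9.69%) and 569 at 300 min (14.6%), while 8 were called lower at 300 min and 164 were called at 120 min alone. Of the 189 falls, 5, 98 and 148 were called lower at those times (backgrounds 0.227%, 5.66% and 18.8%). FRK1 was at 0.913, 0 and 1.06 CPM in flg22+Ed leaves at 60 min and reached 153, 96.9 and 159 CPM at 180 min and 319, 334 and 267 CPM at 300 min. In Ed leaves it was at 0.278, 0.262 and 0.230 CPM at 180 min and at 16.8, 4.43 and 2.04 CPM at 300 min. EXO70H2 went from 0.913, 1.03 and 1.06 CPM at 60 min to 370, 341 and 302 CPM at 300 min in flg22+Ed leaves, with at most 0.582 CPM in Ed leaves at 300 min.

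The change of a difference from 120 to 300 min was not tested, and values are given for genes that had not passed at 120 min. WRKY33 was at 346, 429 and 346 CPM in flg22+Ed leaves and at 385, 346 and 323 CPM in Ed leaves at 300 min, a difference of 0.09 (adjusted p = 0.945). EDS1 was at 74.9, 94.5 and 77.5 against 302, 157 and 103 CPM at that time, a difference of -1.19 (adjusted p = 0.0581), where at 120 min it had been higher with flg22 in each experiment. Of the 24 endoplasmic reticulum chaperone genes 1, 9, 22 and 16 were higher at 60, 120, 180 and 300 min, of the 16 heat shock genes 1, 10, 9 and 2, and of the 20 lignin genes 6, 7, 15 and 15. Of the 43 photosynthesis genes 0, 0, 14 and 43 were lower. Over all tested genes the share higher was 1.55%, 6.1%, 9.69% and 14.6% at these times. The share lower was 0.227%, 1.13%, 5.66% and 18.8%, so a list count is to be read beside these shares. The change of the difference itself passed for 0 genes (0%) from 60 to 120 min, with 574 at an unadjusted p under 0.05 (3.42% of genes). From 120 to 180 min it passed for 0 (0%), with 432 (2.58%). Both shares are below what an unadjusted threshold of 0.05 gives with no change. DESeq2 called 1 gene in each, AT4G33980 in the first and CYP98A3 (AT2G40890), a lignin synthesis enzyme, in the second. Leaving out flg22+Ed replicate 3 gave 5 in the second, CYP98A3 and the lignin gene CSE (AT1G52760) among them.

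**Figure D5:**
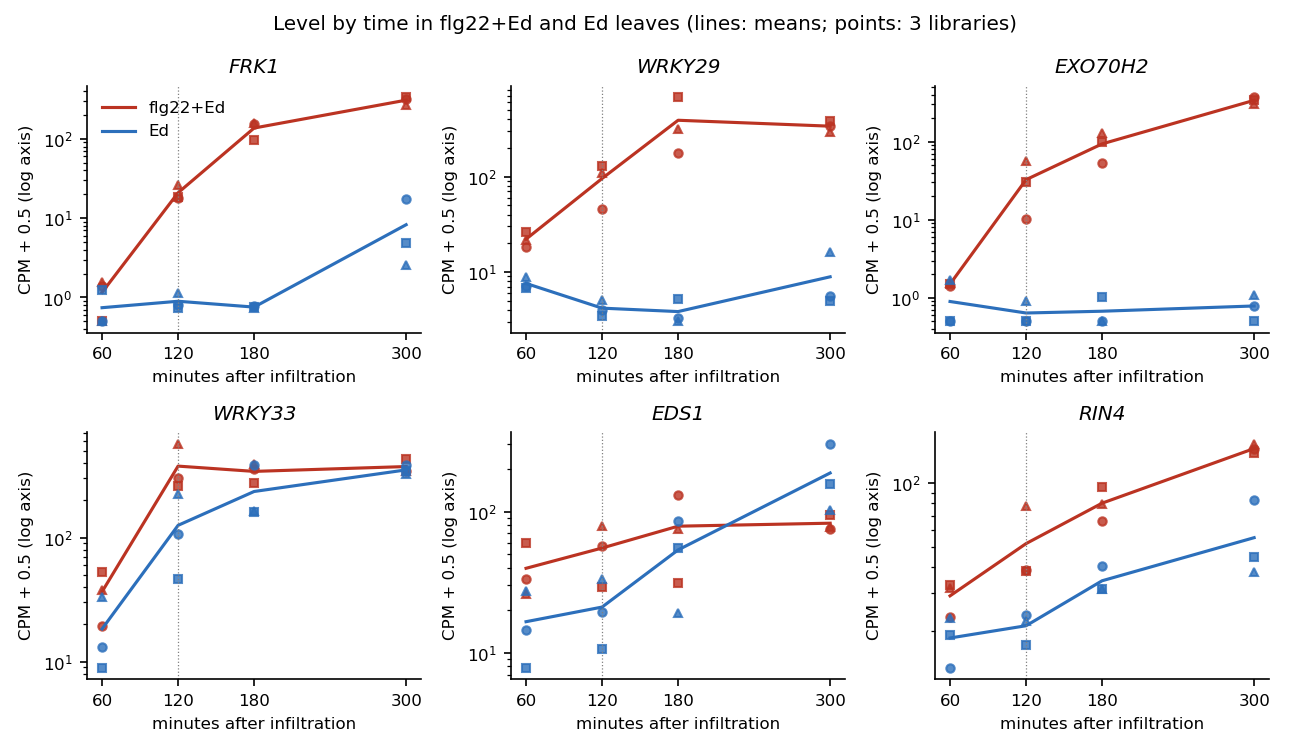
Level of 6 genes as CPM + 0.5 on a log axis against minutes after infiltration in flg22+Ed (red) and Ed (blue) leaves, with lines for means, 1 point per library, a marker shape per experiment and a dotted line at 120 min. FRK1, WRKY29 and EXO70H2 stay apart to 300 min, while the points of WRKY33 overlap between the groups at 300 min and those of EDS1 lie lower in flg22+Ed.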

How the data were processed

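Leaf RNA was sequenced by Smart-3SEQ, in which the first 5 bases of a read are a molecular identifier and 8 bases are trimmed, per the labels' protocols. Per the submitters' processing notes, bcl2fastq 2.17.1.14 and STAR 2.4.2a were used, with the build TAIR10. The authors deposited 1 table of raw counts, 25036 genes by 60 libraries. How counts were made, strand use and the collapsing of identifiers included, is not given in the sources used here. A count can therefore be of reads or of molecules, and antisense or overlapping genes may share tags. Counting intervals and bounds cover counting error only.

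Genes passing filterByExpr of edgeR 4.0.16 (R 4.3.3) were scaled by TMM and tested with its quasi-likelihood F test in 1 fit of 20 groups without a block (40 residual degrees of freedom). Unless another tool is named, an adjusted p comes from this edgeR test, with a threshold of 0.05. CPM use TMM-scaled library sizes. Names came from the TAIR10.1 annotation (24888 genes, 99.4%). The design text calls the replicates independent experiments, so the numbers pair them by design. Deviations from group means correlated at 0.106, 0.267 and 0.5 between same-numbered libraries, while flg22+Ed 1 with Ed 2 gave 0.332. These correlations alone do not show the pairing. The reported p-values do not use this pairing. They rest on a spread between libraries of a group that was estimated over all 20 groups. Spearman correlations within groups were 0.932 to 0.965. The pipeline was run on simulated data with independent libraries and no experiment effect. That run cannot speak to differences between experiments or to libraries at odds with their labels.

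The members and the 32 lists (622 genes, 571 tested) were chosen with earlier results of these data known. Named genes were the 12 largest rises and 8 largest falls with a call, at least 5 CPM in a group mean and 1 direction in all experiments, a fixed set always examined, the Ed against Mock calls, and list members, 4 per list by smallest adjusted p. Other called list members were named after their values were seen. Alternatives were a replicate block, RLE scaling, unscaled library sizes, a filter of 10 CPM in 3 libraries or none, DESeq2 1.42.0, limma-voom 3.58.1, fits of fewer libraries and each library or experiment left out.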

Additional observations from a re-analysis of the deposited data

How the results depend on the processing

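Over the 19 other settings no named call reversed. Of 91 named called genes 31 kept the call in every setting and 60 lost it in 1 or more. The total of 1212 calls was 618 with only the 6 libraries, 801 with the 12 libraries at 120 min and 2167 without 4 libraries of experiment 2 (Mock at 0, 60 and 300 min and flg22 at 0 min) that go against their labels on clock genes and lie outside the 6, and 388 to 1554 when a library or experiment was left out. The higher genes were 565, 680 and 1588 (361 to 1205), and the lower genes 53, 121 and 579 (15 to 402). The lower genes were 314 with the replicate block, 288 with library sizes alone and 114 with no filter. For flg22 against Mock the count was 2779 without the 4 libraries and 145 to 1914 when 1 was left out. For Ed against Mock it was 40 with the replicate block and with DESeq2, 8 with RLE scaling, 2 with limma-voom, 0 with the 12 libraries at 120 min and 0 to 56 when 1 was left out. At 60 min the count was 705 without the 4 libraries and 5 to 327 when 1 was left out, at 180 min 849 to 2640 and at 300 min 3118 to 5653. The interaction gave 0 to 22. The change from 60 to 120 min gave 1 gene with DESeq2, and that from 120 to 180 min 1 with DESeq2, 1 without the 4 libraries and 0 to 5 when 1 was left out. The replicate block moved no other count by over 1.5 times, and of the named genes it gave COR15A and PP2-B13 a call. The cause of these moves was not tested, beyond the fewer samples of the smaller fits. The log2 fold changes used edgeR's default prior count, which matters most for genes with few counts and was not varied. The replicate correlations used log-scale CPM with 1 fixed offset. Low counts in Ed leaves limit the folds of the largest rises.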
